A study of Ovis aries with 40 samples.

Results

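Longissimus dorsi muscle, the long muscle of the back, was taken from Ujumqin fetuses at 85 d (U85) and 100 d (U100) of gestation, and the 6 arrays of these fetuses, 3 per stage, are the subject here. They were chosen by breed and stage in the sample labels from 40 arrays in all, of which 31 were fetal and 15 of those Ujumqin. Ujumqin is an indigenous fat-tailed sheep, and Texel, the heavily muscled breed sampled in parallel, enters for comparison and as the link between slides. The labels give no treatment and no engineered allele for any fetus, and the groups were formed by age. By the labels, U85 replicates 1 and 2 were male and replicate 3 female, and U100 replicates 1 and 3 were male and replicate 2 female. Each array held RNA of 1 fetus, labelled with a single dye. The dams are not named, so the 3 fetuses of a stage were treated as independent. The p-values of U100 against U85 rest on the spread between fetuses of the same stage, pooled over the 15 Ujumqin fetal arrays and moderated across probes. This spread leaves out any slide difference that goes with the stage.

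Skeletal muscle fibres form in the fetus in successive waves and then mature. During maturation the embryonic and neonatal forms of myosin, the motor protein of the thick filament, give way to adult forms, and fibres become slow and oxidative or fast and glycolytic. Fast fibres are known for the myosin heavy chains 2A, 2X and 2B, for α-actinin-3 in the Z-disc and for high levels of glycolytic enzymes. Slow fibres carry the slow myosin heavy chain encoded by MYH7. In sheep most fibres are formed well before birth, and late fetal growth of muscle comes largely from enlargement of fibres already present.

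Levels are given throughout as log2 of the signal of a probe after quantile normalization, and a change is the mean of U100 minus the mean of U85 on that log2 scale. The median signal per array before normalization ranged from 408.6 to 582.8, from 88.0% to 90.9% of the spots lay well above background, and no spot was saturated. Across probes, which are not independent replicates, arrays of the same stage correlated with r from 0.987 to 0.993 and arrays of different stages with r from 0.983 to 0.986. All 6 skeletal muscle markers named by the array (MB, MYF5, MYLPF, MYOD1, MYOG and TNNC2) were well above background on these arrays. Slide and stage were largely entangled. The U85 arrays all lay on slide 2, U100 replicate 1 on slide 3 and U100 replicates 2 and 3 on slide 4. Within the Ujumqin arrays the stage and the slide cannot be told apart, and the only bridge was Texel, with 1 T100 array on slide 2 and 3 on slide 3. A fit that used this bridge is described last. Its values stand beside those leading or MHC genes whose sign it changed, and beside FCER1A and CD3G.

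The probes behind the largest changes are shown first, since each value is the signal of 1 short stretch of a transcript. Each is a 60-base DNA probe of the array, written 5′ to 3′. Of the EEF1A2 probe only the first 30 bases are shown. The first 3 belong to the named genes with the largest called increases and the last 3 to those with the largest called decreases.
FBP2: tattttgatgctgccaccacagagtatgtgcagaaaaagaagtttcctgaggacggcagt
EEF1A2: actggatgctcgccatcaaggtccagtgga
MYH1: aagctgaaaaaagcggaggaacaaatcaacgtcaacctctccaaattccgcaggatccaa
FOS: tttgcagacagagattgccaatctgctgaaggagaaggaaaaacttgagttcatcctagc
SERPINA1: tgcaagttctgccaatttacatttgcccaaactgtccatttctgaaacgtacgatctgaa
PLOD2: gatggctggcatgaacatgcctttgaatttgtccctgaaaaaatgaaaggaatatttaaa
FBP2, EEF1A2, this MYH1 probe and PLOD2 take their names from the study's own gene tables, in which unnamed probes of the array were assigned to genes, and the names of FOS and SERPINA1 come from the array.

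From 85 to 100 d the named genes with the largest called increases were FBP2, EEF1A2, MYH1 and ACTN3, by 10.6-fold to 20.5-fold, and those with the largest called decreases were FOS, SERPINA1 and PLOD2, by 3.89-fold to 6.63-fold. TRRAP, at -2.57 (adjusted p = 0.0559), and TXNRD1, below background in U100 (adjusted p = 0.123, limma), also read low there but did not pass. Of 14385 probes tested, 86 (0.598%) were higher and 80 (0.556%) lower in U100 when both an adjusted p under 0.05 (limma, Benjamini-Hochberg adjustment) and a fold of 2 or more were required, and these are the probes called below. At any fold, 216 probes (1.5%) were higher and 220 (1.53%) lower at that adjusted p. Of the called probes, 19 rose and 13 fell by at least 4-fold. Of the 166, 33 probes for 26 genes had a name on the array, 17 had a name in the study's tables and 116 had none, so most of the change cannot be read by gene here. The U85 and U100 arrays did not overlap for 165 of the 166. Over all tested probes, the 3 U100 arrays lay above all 3 U85 arrays for 1859 (12.9%) and below them for 1883 (13.1%).

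These counts leaned on single fetuses. Without U85 replicate 1 they were 39 higher and 25 lower, without U85 replicate 2 they were 33 and 22, without U100 replicate 2 they were 39 and 23, and without U100 replicate 3 they were 30 and 24. Without U100 replicate 1, the array on a slide of its own, they were 130 and 193. In all 6 such fits 19 of the 86 and 14 of the 80 were called again, and among the 15 named genes with the largest change in each direction 8 that rose and 3 that fell were. The split between the directions depended on the scaling. It was 51.8% higher under quantiles and 40.7% under scaling to the 75th percentile, which gave 61 higher and 89 lower and moved the median of all probes from -0.01 to -0.05.

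**Figure D1:**
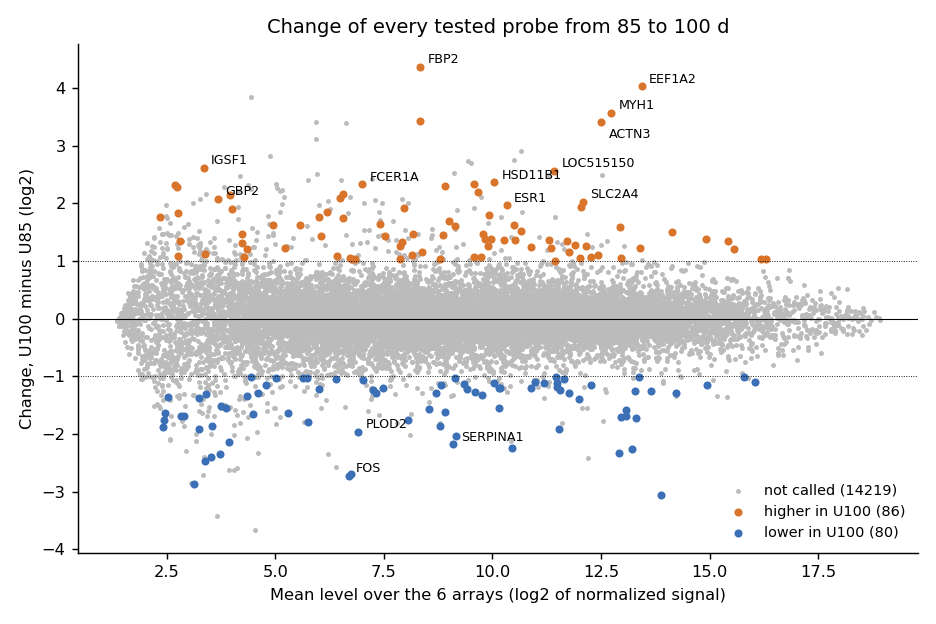
Change from U85 to U100 (vertical axis, log2) against the mean level over the 6 arrays (horizontal axis, log2 of normalized signal), with 1 point per tested probe. The called probes are coloured, 86 above 0 and 80 below, and the named genes that changed most, FBP2 and EEF1A2, lie at the top.

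FBP2, a muscle fructose-bisphosphatase that acts in the rebuilding of glycogen from smaller carbon units, had the largest increase of a named gene. Its level was 6.12, 5.85 and 6.51 in U85 and 10.33, 11.12 and 10.11 in U100, a change of +4.36 (SE 0.341, adjusted p = 3.80e-05, limma), or 20.5-fold. The groups lay far apart, and leaving out any 1 array gave a change between +4.06 and +4.56.

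EEF1A2, the translation elongation factor that replaces EEF1A1 in mature muscle and nerve, read 11.61, 11.45 and 11.20 in U85 and 15.05, 16.01 and 15.28 in U100. The change was +4.03 (SE 0.223, adjusted p = 1.53e-06, limma), or 16.3-fold. The U85 and U70 means were 11.42 and 11.43, and the mean at 120 d was 17.77, so the level rose after 85 d and went on rising to 120 d.

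Named contractile genes with a called change, MYH1, ACTN3 and TMOD4, all rose. Their names come from the study's tables, drawn up from differences between the breeds on arrays that include U85. Their shared direction is thus not independent evidence. The MYH1 probe shown above, assigned to the 2X myosin heavy chain, read 10.67, 10.80 and 11.38 in U85 and 14.65, 14.47 and 14.42 in U100. Its change was +3.56 (SE 0.179, adjusted p = 8.84e-07, limma), or 11.8-fold, with no overlap between the stages. A second probe that the study's tables gave to MYH1 read 6.29, 6.64 and 6.89 in U85 and between 9.98 and 10.13 in U100, a change of +3.43 (adjusted p = 3.72e-06, limma). Both probes thus rose by more than 10-fold. ACTN3, the α-actinin of fast fibres that anchors thin filaments at the Z-disc, read 11.11, 10.32 and 10.98 in U85 and 13.54, 14.84 and 14.24 in U100, a change of +3.41 (SE 0.294, adjusted p = 1.01e-04, limma). TMOD4, a tropomodulin that caps the pointed ends of thin filaments, read 10.84, 10.79 and 11.58 in U85 and 12.86, 13.03 and 13.15 in U100, and rose by 1.94 (SE 0.197, adjusted p = 5.59e-04, limma). Each of these genes was called in all 6 fits that left out 1 array. CASQ1, the calcium store protein of the sarcoplasmic reticulum in fast fibres, passed the adjusted threshold below 2-fold at +0.92 (adjusted p = 0.0357, limma).

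Other probes that the array itself names for myosin heavy chains did not pass the test. The probe for 2X myosin read 13.48, 13.49 and 13.26 in U85 and 13.62, 13.10 and 13.50 in U100, a change of -0.00 (SE 0.278). Both probes for 2A myosin changed by +0.10 (SE 0.276) and +0.07 (SE 0.253), and the groups overlapped. Those for the slow myosin changed by +0.30 (SE 0.207) and +0.16 (SE 0.204). The sequences bear on this and were chosen for display after these values were seen. Capitals mark the run of 44 bases that the 2A and 2X probes have in common.
2A probe: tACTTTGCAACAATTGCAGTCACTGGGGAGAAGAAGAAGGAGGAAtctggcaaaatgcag
2X probe: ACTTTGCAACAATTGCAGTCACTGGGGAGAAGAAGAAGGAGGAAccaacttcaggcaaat
Slow probe: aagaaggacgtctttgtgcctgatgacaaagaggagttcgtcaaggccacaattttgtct
Second MYH1 probe: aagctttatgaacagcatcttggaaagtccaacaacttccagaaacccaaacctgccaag
Both 2A probes overlap by 59 bases and are not separate measurements. The 2 MYH1 probes that rose have at most 8 bases in a row in common with any of the others and 5 with each other. So of the probes that carry the symbol MYH1, 2 rose by more than 10-fold and the one that is nearly a 2A probe did not. Whether the 2A and 2X probes bind both transcripts was not tested.

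**Figure D2:**
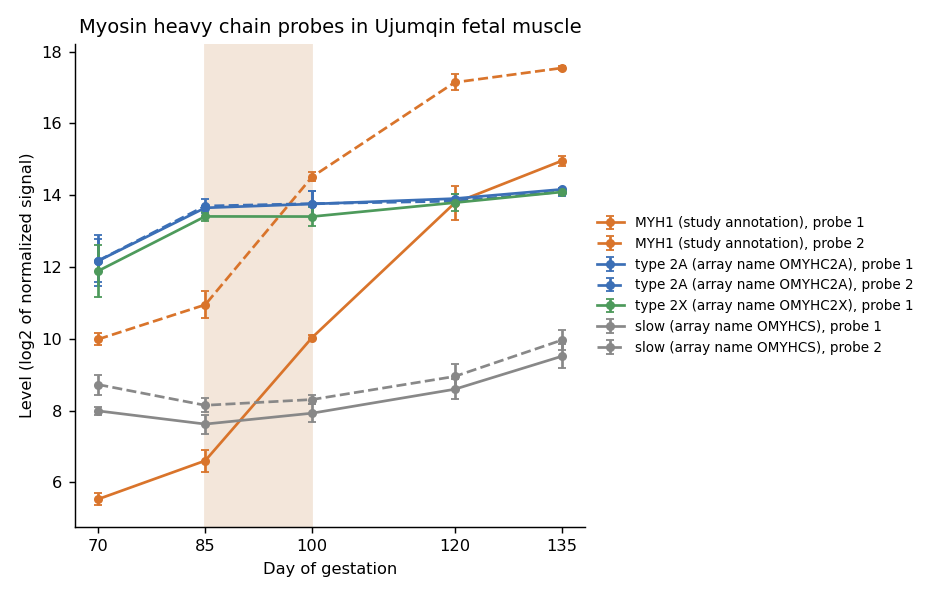
Mean level (vertical axis, log2 of normalized signal) of each myosin heavy chain probe in Ujumqin fetuses by day of gestation (horizontal axis), at 5 stages of 3 arrays each with bars of 1 SD, and with the interval from 85 to 100 d shaded. The 2 study-named MYH1 probes climb through the shaded interval, while the 2A, 2X and slow probes stay nearly level there.

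The myosin probes differed in timing. The 2A probes rose before 85 d, by +1.48 and +1.52 from U70 to U85 (adjusted p = 0.0478 and 0.0263, limma), and the 2X probe of the array rose by +1.52 over the same days (adjusted p = 0.0469). The MYH1 probe shown first rose by +0.96 from 70 to 85 d, by +3.56 from 85 to 100 d and by +2.63 from 100 to 120 d. The slow probes passed the test only from 120 to 135 d, at +0.92 and +1.01 (adjusted p = 0.0115 and 0.00706, limma). These intervals share a stage with their neighbours, so their values are set side by side only.

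Structural genes outside this group differed little. MYLPF, the fast regulatory light chain, changed by -0.03 (SE 0.111) and TNNC2, the fast troponin C, by -0.03 (SE 0.104). TPM1, a tropomyosin of the thin filament, changed by +0.23 (SE 0.168), and MYL6, a light chain of non-muscle and smooth muscle myosin, by +0.12 (SE 0.211). Of the 6 thick filament genes and the 2 thin filament and Z-disc genes named by the array, none passed the adjusted test, whereas MYH1, ACTN3 and TMOD4 above carry names from the study's tables and are outside these counts. Of the 15 genes of myogenic regulation none passed either, and their median change was +0.12. MYOD1, a transcription factor that commits cells to muscle, changed by -0.01 (SE 0.203), and FST, follistatin, which binds activins and related ligands, by -0.34 (SE 0.164).

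Single genes of glucose uptake and energy metabolism were called higher. SLC2A4, the insulin-responsive glucose transporter of muscle and fat, read 10.17, 11.01 and 12.04 in U85 and 13.43, 12.99 and 12.89 in U100, a change of +2.03 (SE 0.402, adjusted p = 0.0218, limma). The U85 arrays spread widely but stayed below all U100 arrays. Its other probe changed by +1.47 and missed the threshold (adjusted p = 0.0559). ENO3, the enolase of muscle, rose by 1.04 on 1 probe (SE 0.184, adjusted p = 0.0135), while its other probes changed by +0.96 and +0.83 (adjusted p = 0.0704 and 0.0974, limma). COX7A1, the heart and muscle form of a subunit of cytochrome c oxidase, rose by 1.38 (SE 0.225, adjusted p = 0.0105). SLC25A4, the adenine nucleotide carrier of muscle mitochondria, rose by less than 2-fold at +0.64 (SE 0.134, adjusted p = 0.0265).

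Few members of the lists for these pathways passed. Of 13 genes of glycolysis and glycogen named by the array and taken at 1 probe each, none passed the adjusted test, but 12 lay above 0 with a median of +0.36, against -0.01 for all probes and 0.00 for the 926 named genes. LDHA, lactate dehydrogenase A, changed by +0.45 (adjusted p = 0.116), ALDOA, the muscle aldolase, by +0.70 (adjusted p = 0.0828) and the brightest GAPDH probe by +0.36 (adjusted p = 0.184, limma). A dimmer GAPDH probe passed at +0.97 (adjusted p = 0.0302). Of 22 genes of fatty acid and lipid handling only PPARA, a nuclear receptor that drives fatty acid oxidation, passed, at +0.75 (adjusted p = 0.0157), and the median was +0.24. Of 9 mitochondrial genes only SLC25A4 passed and the median was -0.06. HACD1, a muscle dehydratase of very long chain fatty acid synthesis, passed on both its probes at +0.98 and +0.66 (adjusted p = 0.00881 and 0.0218, limma). ATP1B1, the β1 subunit of the sodium pump, passed on both at +0.99 and +0.87 (adjusted p = 0.0194 and 0.0290).

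**Figure D3:**
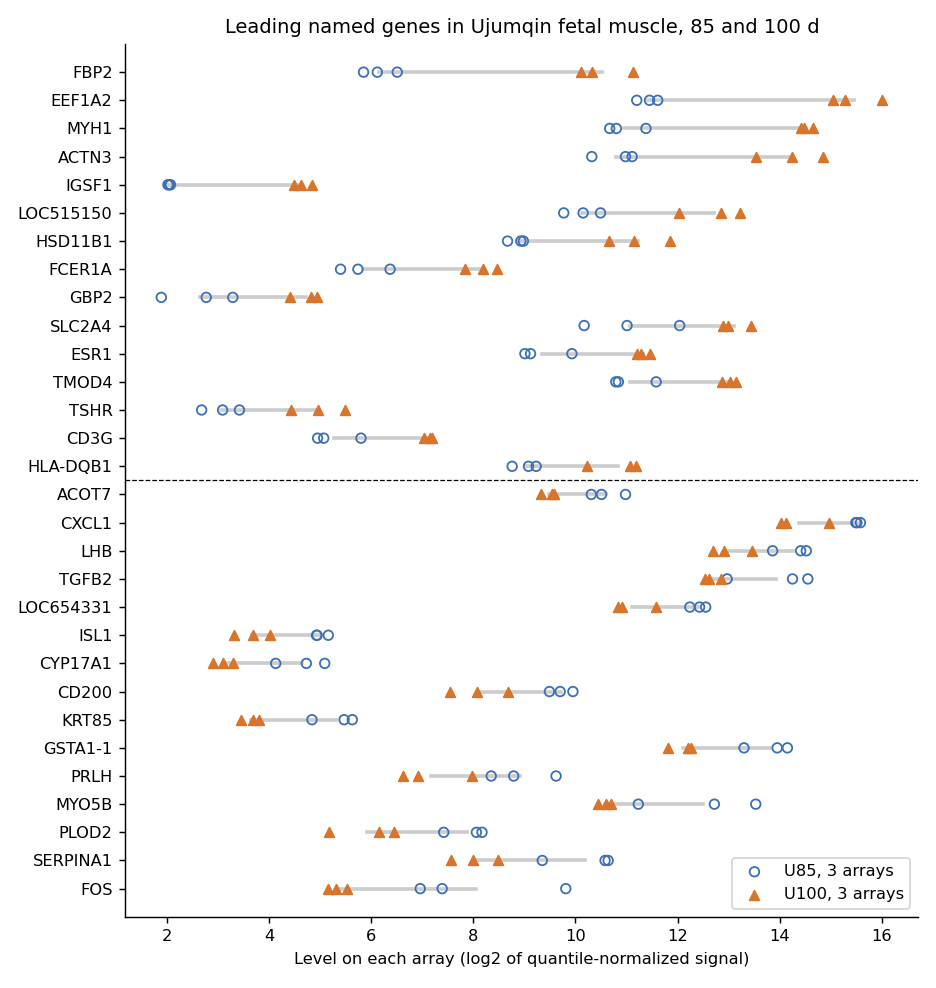
Level of each leading named gene (horizontal axis, log2 of quantile-normalized signal) on the 3 U85 arrays (open circles) and 3 U100 arrays (filled triangles), with a grey line between the means. The 15 genes that rose and the 15 that fell show no overlap between the stages, which the rule for naming them required, and the U85 points of FOS spread most, from 6.96 to 9.81.

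Of 29 hormone-signalling genes named and tested, 4 rose, none fell and 25 did not pass. Above 0 lay 22 of the 29, against 464 of all 926 named genes (50.1%), of which 13 were called higher, and the list median was +0.43 against 0.00. HSD11B1, which regenerates active glucocorticoid inside cells, read 8.98, 8.67 and 8.93 in U85 and 10.66, 11.85 and 11.15 in U100, a change of +2.36 (SE 0.254, adjusted p = 9.54e-04, limma). Its other probe rose by 2.17, and both were called without any 1 array. ESR1, the oestrogen receptor α, read 9.01, 9.12 and 9.93 in U85 and 11.20, 11.46 and 11.29 in U100, and rose by 1.96 (SE 0.336, adjusted p = 0.0112). The U100 arrays lay within 0.3 of one another. GHR, the growth hormone receptor, rose by 1.35 (SE 0.283, adjusted p = 0.0265). TSHR, the thyrotropin receptor, read 2.68, 3.09 and 3.42 in U85 and 4.42, 5.49 and 4.95 in U100. The change was +1.89 (SE 0.451, adjusted p = 0.0423) near the lower end of the scale, with 2 of the 3 U85 arrays well above background. For TSHR it was +0.95 (adjusted p = 0.241) with a floor of 16 and +0.25 (adjusted p = 0.151) with normexp (limma). TSHR did not pass under scaling to the 75th percentile or in the fit on the 10 groups (adjusted p = 0.0655 and 0.239, limma). It also missed the threshold with the deposited table. Of the fits without 1 array, TSHR was called only in that without U100 replicate 1. IGSF1, carried on the array as an inhibin binding protein, read 2.04, 2.02 and 2.07 in U85, none of them well above background, and 4.48, 4.85 and 4.62 in U100. Against the detection limit it was at least 4.66-fold higher (adjusted p = 1.96e-05, limma), where the bound sets the U100 mean against the lowest signal well above background on each U85 array. This call depended on the treatment of dim signals and on the fit. The change was +0.65 (adjusted p = 0.0744) with a floor of 16 and +0.24 (adjusted p = 0.374) with normexp, and the adjusted p was 0.0974 in the fit on the 10 groups. A second IGSF1 probe was below background in both groups.

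The remaining gene among the 15 that rose most, LOC515150, has no function in its name. It read 10.49, 9.77 and 10.15 in U85 and 12.85, 12.03 and 13.23 in U100, a change of +2.57 (SE 0.509, adjusted p = 0.0218, limma), and it changed by -0.74 in Texel. MANBA, the lysosomal β-mannosidase, rose by 1.24 (adjusted p = 0.00939) and was called in all 6 fits without 1 array. PC1 and LOC443188 were called higher but lay below background on all U85 arrays and on at least 2 of the 3 U100 arrays.

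Growth-factor genes of the insulin-like family went both ways. IGFBP5, a binding protein that modulates IGF action in muscle, passed on both probes at -0.90 and -0.87 (adjusted p = 0.0481 and 0.0418, limma), and IGFBP2, another, on both at -0.87 and -0.89 (adjusted p = 0.0157 and 0.0249). IGFBP1 passed on 1 of 3 probes at -0.71 (adjusted p = 0.0321), and the others changed by -0.64 and +0.12 without passing. With GHR above, 1 of 12 genes of this list was higher and 3 were lower at any fold, and the median was -0.13. IGF2, the main fetal growth factor of the family, changed by -0.19 (SE 0.171). Of 24 genes of TGF-β and BMP signalling 1 fell, TGFB2, a ligand that restrains differentiation. It read 12.97, 14.55 and 14.25 in U85 and 12.84, 12.54 and 12.61 in U100, a change of -1.26 (SE 0.309, adjusted p = 0.0466). U85 replicate 1 lay next to the U100 arrays, and without replicate 2 the change was -0.95 (adjusted p = 0.175).

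Single genes of immune cells and antigen presentation were called higher, while the leukocyte list went both ways, with 9 of its 17 members above 0 and 8 below, 1 higher and none lower by the test. FCER1A, the α chain of the high-affinity IgE receptor of mast cells and basophils, read 6.37, 5.74 and 5.40 in U85 and 7.83, 8.47 and 8.19 in U100, a change of +2.32 (SE 0.313, adjusted p = 0.00430, limma), and its other probe rose by 1.77. CD3G, a chain of the T cell receptor complex, read 4.95, 5.07 and 5.80 in U85 and 7.19, 7.03 and 7.15 in U100, a change of +1.85 (SE 0.378, adjusted p = 0.0243). With slide as a fixed block the changes of FCER1A and CD3G were +0.95 (SE 1.082) and +0.22 (SE 1.755). In the fit on the 10 groups without that block neither passed (adjusted p = 0.0534 and 0.378, limma). Of the leukocyte markers that did not pass, TYROBP, an adaptor of myeloid and NK cell receptors, changed by -0.59 and IGKC, an immunoglobulin light chain, by -0.53. HLA-DQB1, an MHC class II β chain, rose by 1.80 (adjusted p = 0.0111), whereas a probe that the study's tables name OVAR-DQB1 changed by -0.59 (SE 2.64, adjusted p = 0.930). HLA-DQB1 did not pass in the fit on the 10 groups (adjusted p = 0.259, limma). MHCII-DRB1, another such chain, rose by 1.39 (adjusted p = 0.0381), but was at -1.33 with slide as a fixed block. OVAR, an MHC class I chain, was 2.15-fold higher (adjusted p = 0.0290), and its change was -0.42 with the slide block. These MHC genes belong to a polymorphic family with near-identical copies, so their probes may read several genes or alleles. GBP2, an interferon-induced GTPase, rose by 2.08 (adjusted p = 0.0451) with 1 of 3 U85 arrays well above background. It was called in none of the fits without 1 array. The GBP2 change was +0.725 (adjusted p = 0.325) with a floor of 16 and +0.251 (adjusted p = 0.305) with normexp (limma). IL15, a cytokine also made by muscle fibres, rose on 2 of its 4 probes, by 1.62 and 1.02 (adjusted p = 0.0105 and 0.00429, limma), and its other probes changed by +0.87 and +1.37 (adjusted p = 0.242 and 0.164). SIGIRR, a receptor that dampens interleukin-1 signalling, rose by 1.62 (adjusted p = 0.00430). Of 12 interferon genes, B2M, the light chain of MHC class I, passed at +0.66 (adjusted p = 0.0412) and IFNG, interferon γ, at -0.56 (adjusted p = 0.0365), with a second IFNG probe at -0.05. The median of the list was +0.43.

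Markers of other cell types are given beside these genes by the mean level over each list on each array. Over 17 of 46 leukocyte markers the mean level ranged from 6.73 to 6.80 in U85 and from 6.88 to 6.97 in U100, CD4 and CD40LG were never well above background, and CD3G alone passed the test. The leukocyte ranges of the stages did not overlap, and neither did the endothelial and fibroblast ranges that follow. These ranges lay higher in U100, although no endothelial or fibroblast marker passed the test. Of all tested probes, 12.9% were likewise higher in U100 without overlap and 13.1% lower, and no such rate was computed for list means. The median change of the leukocyte list was +0.09. It was +0.02 under scaling to the 75th percentile and -0.12 with all probes of a gene averaged. Under that scaling the endothelial and fibroblast medians stayed positive, at +0.21 and +0.38. The mean of 10 of 21 endothelial markers ranged from 7.70 to 7.87 and then from 7.96 to 8.22, and that of 4 of 10 fibroblast markers from 11.84 to 12.21 and then from 12.34 to 12.64. The 5 of 10 adipocyte markers overlapped between the stages, at 6.61 to 7.15 and 6.96 to 7.30, with UCP1 below background. The 3 of 19 erythroid markers also overlapped, at 10.05 to 10.89 and 9.88 to 10.39. GFAP, the 1 nerve marker measured, read from 8.37 to 9.28 and then from 8.18 to 8.53. The 3 of 20 cartilage and bone markers lay at 4.74 to 4.92 and 4.68 to 5.37, with ACAN below background. The 5 of 26 skin and hair markers lay at 3.27 to 3.60 and 2.92 to 3.48, with KRT35 below background. The 6 of 15 skeletal muscle markers named by the array were lower in U100, with all 6 changes below 0 and none past the test. Their mean level ranged from 14.380 to 14.722 in U85 and from 14.292 to 14.379 in U100, without overlap, though the ranges all but touched. ACTN3 and CASQ1 are also on that list but take their names from the study's tables. They rose by 3.41 and 0.92, both past the adjusted test. In whole muscle, more cells of a type and more RNA per cell cannot be told apart, and the part of such shifts in the genes above was not tested.

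The largest called decrease among named genes was that of FOS, an immediate-early transcription factor induced within minutes of a stimulus. It read 6.96, 9.81 and 7.39 in U85 and 5.52, 5.31 and 5.16 in U100, a change of -2.73 (SE 0.637, adjusted p = 0.0396, limma). U85 replicate 2 stood well above the other U85 arrays, and without it the change was -1.85 (adjusted p = 0.103). The second FOS probe, at -2.69, overlaps the first by 59 bases and adds no separate measurement. ZFP36, another early-response gene, which destabilises messenger RNAs, passed below 2-fold on 1 probe at -0.84 (adjusted p = 0.0173), with the other at +0.02, and RGS2, a regulator of G protein signalling, on both probes at -0.99 and -0.84 (adjusted p = 0.0194 and 0.0401).

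SERPINA1, the protease inhibitor α1-antitrypsin, read 10.58, 10.64 and 9.35 in U85 and 7.99, 8.48 and 7.56 in U100, a change of -2.18 (SE 0.491, adjusted p = 0.0353, limma), and its other probe changed by -2.03. PLOD2, which hydroxylates lysines in collagen before cross-linking, read 8.06, 7.42 and 8.17 and then 6.44, 6.16 and 5.18, a change of -1.96 (SE 0.322, adjusted p = 0.0111), which was +0.11 with slide as a fixed block. MYO5B, a vesicle-carrying myosin, read 13.53, 12.72 and 11.23 and then 10.59, 10.45 and 10.70, a change of -1.91 (SE 0.438, adjusted p = 0.0377). U85 replicate 3 lay close to the U100 arrays, and without replicate 1 the change was -1.40. GSTA1-1, a glutathione transferase of detoxification, read 14.15, 13.95 and 13.30 and then 12.27, 11.82 and 12.21. It fell on both probes, by 1.70 (SE 0.234, adjusted p = 0.00486) and by 1.69, and the first was called in all 6 fits without 1 array.

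Of the other leading genes that fell, CD200, a membrane glycoprotein that restrains myeloid cells, changed by -1.62 (adjusted p = 0.00896, limma; +0.06 with the slide block) and ISL1, a transcription factor of motor neurons and other lineages, by -1.34 (adjusted p = 0.0178). CXCL1, a chemokine for neutrophils, changed by -1.16 (adjusted p = 0.0429; +0.32 with the slide block) and ACOT7, an acyl-CoA thioesterase, by -1.11 (adjusted p = 0.0270). LOC654331, a name the array gives with no function, changed by -1.30 (adjusted p = 0.0232; +0.58 with the slide block). CYP17A1, an enzyme of androgen synthesis, read 5.09, 4.73 and 4.13 in U85 and lay below background in U100, at least 2.54-fold lower (adjusted p = 0.0326). GRIA1, a glutamate receptor subunit, changed by -1.01 (adjusted p = 0.0249) and was called in none of the fits without 1 array.

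Probes that end in a run of A bases lay lower than the rest in U100, and some of the genes that fell are read by them. This was noticed after the values were seen and is a description, with no test. Of the probes tested, 149 end in 6 or more A bases, as a probe does that reaches into a poly(A) tail or an A-rich stretch. Their median change was -0.25, against 0.00 for the other probes, and 73.8% of them lay below 0 against 50.5%. Of these 149, 8 (5.37%) were called lower and 0 higher, and at any fold 15 passed lower and 0 higher. The 4 called ones with a name were probes of LHB, PRLH, KRT85 and CYP17A1. The last 20 bases of each are shown to make the ending visible, with the A run in capitals.
LHB: acttctcaagctgcAAAAAA
PRLH: cagctggcttgttcAAAAAA
KRT85: tgctgctgcgatgcAAAAAA
CYP17A1: cagtttctttctccAAAAAA
LHB, the β subunit of the pituitary luteinizing hormone, read 14.41, 14.52 and 13.86 in U85 and 13.45, 12.69 and 12.90 in U100 on this probe, a change of -1.25 (adjusted p = 0.0249, limma). Its other probe, with no A run, changed by -0.09 (SE 0.173), so the 2 LHB probes disagree. PRLH, prolactin releasing hormone, changed by -1.76 (adjusted p = 0.0438), and KRT85, a hair keratin, by -1.66 (adjusted p = 0.00958; +0.16 with the slide block) to levels at which 1 of 3 U100 arrays was well above background. The probe of CYP17A1 shown changed by -1.29 (adjusted p = 0.00226), and the other, given above, has no such ending. Such an ending is also found on 1 of the IGFBP2 probes, which changed by -0.89 (adjusted p = 0.0249). The median deviation of these 149 probes from each probe's own mean over the 6 arrays was +0.11, +0.07 and +0.18 in U85 and -0.10, -0.18 and -0.11 in U100. In the fit with slide as a fixed block their median change was +0.08, and in Texel it was -0.10. The part of this ending in the changes of these genes was not tested.

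In several lists no gene passed the test. Of 12 cell cycle genes none passed, but 11 lay below 0, with a median of -0.19 and one of -0.44 in Texel. CCND2, a D-type cyclin, changed by -0.47 (SE 0.256), and PCNA, the sliding clamp of DNA replication, by -0.16 (SE 0.147). None of 11 collagen and matrix genes, 18 ribosomal protein genes, 10 protein breakdown genes, 7 redox genes, 5 chaperone genes or 3 sterol synthesis genes passed, with medians of +0.05, -0.13, -0.01, +0.15, -0.20 and -0.60. All 3 sterol synthesis genes lay below 0. Of 3 genes of excitation and calcium handling 1 passed, ATP1B1. For comparison, 25 of all 926 named genes were higher and 22 lower at any fold by the same adjusted p, with 13 and 9 of them called. Of 28 genes that the study itself singled out for differences between the breeds on these arrays, 25 were tested, 6 were called higher (FBP2, EEF1A2, MYH1, ACTN3, TMOD4 and TSHR), none was called lower and 7 passed at any fold. Since that list was chosen on these samples, it is not independent evidence of a direction.

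**Figure D4:**
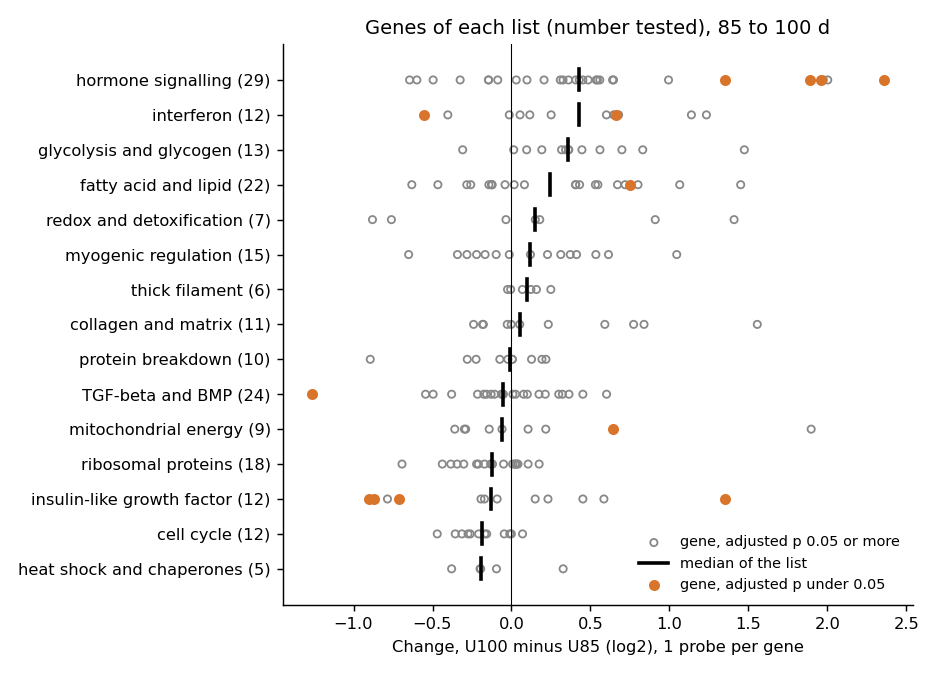
Change from U85 to U100 (horizontal axis, log2, 1 probe per gene) of the genes in each list of at least 5, with the number tested in brackets, the list median as a bar and genes at an adjusted p under 0.05 as filled points. The hormone-signalling, interferon and glycolysis lists have medians of +0.43, +0.43 and +0.36, and the cell cycle list one of -0.19.

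Among probes with no name, the largest called increases were +2.32 (probe A_70_P065771) and +2.30 (probe A_70_P003106). The first read 7.67, 8.13 and 9.43 in U85 and 11.03, 9.98 and 11.19 in U100, and the second 7.84, 8.28 and 7.18 and then 9.79, 10.28 and 10.13. The called decreases shown by the same rule are those of probes A_70_P021871 and A_70_P024976. The former changed by -3.07 and read 15.70, 15.23 and 15.31 and then 13.63, 11.71 and 11.71, so U100 replicate 1 lay between the groups, and the latter fell from 4.78, 4.84 and 4.10 to below background and was at least 2.86-fold lower.

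By counts of called probes, the interval from 85 to 100 d was neither the lowest nor the highest of the 4 fetal intervals in Ujumqin. The slides changed along with these intervals. The U70 and U85 arrays all lay on slide 2, the U120 arrays on slide 4 and the U135 arrays on slide 5. Only the interval from 70 to 85 d stayed on 1 slide, and the part of the slide in the counts was not tested. By the same fit and rule, 24 probes were higher and 7 lower from 70 to 85 d, 86 and 80 from 85 to 100 d, 111 and 60 from 100 to 120 d, and 309 (2.15%) and 291 (2.02%) from 120 to 135 d. Only the last of the other intervals has no array in common with U85 and U100. There, 11 of the 86 probes were again called higher and 1 lower, and 6 of the 80 again lower and 3 higher. FBP2 rose in all 4 intervals, by +2.45, +4.36, +1.64 and +1.76. EEF1A2 changed by -0.01, +4.03, +2.32 and +0.38, and ACTN3 by +1.30, +3.41, +2.36 and +0.39. These genes were chosen for their change from 85 to 100 d, which favours that step in such a comparison. IGSF1 continued upward after 100 d, to 8.40 at 120 d and 10.32 at 135 d.

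**Figure D5:**
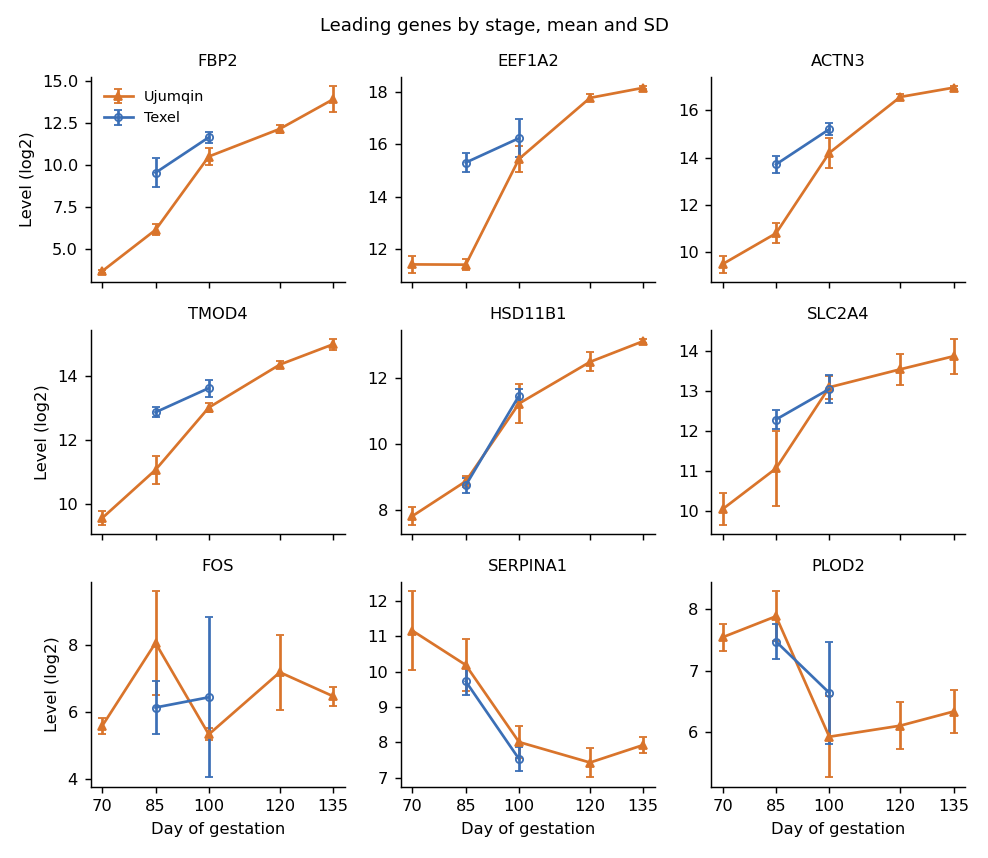
Level (vertical axis, log2 of normalized signal) of leading genes over the 5 fetal stages of Ujumqin and at 85 and 100 d in Texel, against day of gestation (horizontal axis), as the mean with bars of 1 SD over the 3 or 4 arrays of a stage. EEF1A2 in Ujumqin stays near 11.4 until 85 d and reaches 15.45 at 100 d, while Texel starts from 15.31 at 85 d.

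Texel fetuses of the same ages gave a comparison on other animals, 3 at 85 d (T85) and 4 at 100 d (T100), partly on the same slides. T85 replicates 1 and 2 lay on slide 1 and replicate 3 on slide 2. T100 replicate 1 lay on slide 2 and the other T100 arrays on slide 3. Stage and slide thus went largely together in Texel too, and the part of the slide in the shared directions below was not tested. By the same threshold 138 probes (0.959%) were higher and 140 (0.973%) lower in T100 than in T85. Of the 86 probes called higher in Ujumqin, 83 (96.5%) were above 0 in Texel, where 48.6% of all probes were, and 26 (30.2%) were also called. Of the 80 called lower, 69 (86.2%) were below 0 in Texel, against 51.4% of all probes, and 14 (17.5%) were called. The median change was +1.00 in Texel against +1.43 in Ujumqin for the former, and -0.71 against -1.33 for the latter, where the Ujumqin values were the ones used to choose the probes. FBP2 changed by +2.10 in Texel, the MYH1 probe shown first by +1.73, ACTN3 by +1.49 and HSD11B1 by +2.72. SERPINA1 changed by -2.20. FOS changed by +0.31, the opposite direction to Ujumqin. T100 replicate 2 read 9.87 against 6.22, 4.62 and 5.03 on the other T100 arrays, and without it the difference of the means was -0.84. That array was left out after its value was seen, and this difference was not tested. HLA-DQB1 changed by -1.39 and TSHR by -0.58.

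Whether the change itself differed between the breeds was tested in a fit over all 31 fetal arrays. Of all probes, 1 (0.00695%) passed with at least 2-fold, EEF1A2, and 318 did so at an unadjusted p under 0.05. EEF1A2 rose by 4.03 in Ujumqin and changed by +0.93 in Texel (adjusted p = 0.0672), a difference of 3.10 (SE 0.457, adjusted p = 0.00790, limma). T85 read 14.91, 15.60 and 15.41, and T100 read 15.19, 16.66, 16.35 and 16.74. The T85 arrays thus lay at the level of U100 and some 4 log2 units above U85, and the means of T100 and U100 were 16.24 and 15.45. Without U85 replicate 3 the adjusted p of the difference was 0.0524, and without T85 replicate 2 it was 0.0548, so that in those fits no probe was called higher. The next named gene, ACTN3, had a difference of +1.92 with an adjusted p of 0.448, and no difference was shown for FBP2, at +2.26 (adjusted p = 0.696, limma).

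Slide was put in as a fixed block in the fit that holds the 10 groups of both breeds, an alternative chosen after the data were seen. The change then rests on the T100 arrays that link slide 2 to slide 3, and the median standard error of the called probes went from 0.262 to 0.621. In that fit 1 unnamed probe was called higher and 0 lower. That probe was not among the 166 (adjusted p = 0.862 without the block), so 0 of the 166 kept their call. Of the 86 probes, 75 kept their sign with a median of +1.14, and of the 80, 68 did with a median of -0.70. FBP2 was at +4.00 (SE 0.814), ACTN3 at +2.94 (SE 0.567), MYH1 at +2.71 (SE 0.782), EEF1A2 at +2.66 (SE 0.535), HSD11B1 at +2.27 (SE 0.410) and TMOD4 at +1.58, all in the direction given above. MHCII-DRB1, at -1.33, and OVAR, at -0.42, were not. Among the leading genes that fell, PLOD2 (+0.11), KRT85 (+0.16), CD200 (+0.06), LOC654331 (+0.58) and CXCL1 (+0.32) changed sign. For these 5 genes the T100 array on the slide of U85 read above every other T100 array. For CD200 it read 10.15, against 9.28, 8.97 and 9.10 on slide 3, and for PLOD2 it read 7.86, against 6.38 or less. For FBP2 it read 11.41, against 12.10, 11.48 and 11.65, and for EEF1A2 it read 15.19, against 16.66, 16.35 and 16.74. Within the Ujumqin arrays, stage and slide cannot be told apart for any gene, including those that kept their sign.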

How the data were processed

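RNA of longissimus dorsi from 1 fetus per array carried the dye Cy3 on Agilent sheep arrays read in 1 colour, as the labels state. The scanner files hold the intensity of each spot, which the authors obtained with Agilent Feature Extraction 10.5, with background subtracted and no scaling between arrays. The table of log2 values that the authors deposited was made by quantile normalization and served as an alternative. Groups, replicate numbers and sex came from the labels.

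Control spots and outlier spots were dropped and replicate spots averaged. Quantile normalization covered all 31 fetal arrays, and log2 was taken after signals below 1 had been raised to 1. Of 15008 probes, the 14385 that were well above background on at least 1 fetal array were tested. The U100 and U85 arrays were compared with limma 3.58.1 in R 4.3.3, in a fit over the 15 Ujumqin fetal arrays with 1 mean per stage. Benjamini-Hochberg adjustment covered every tested probe, and standard errors come from this fit. The difference between the breeds came from a fit over 10 groups. Tables and figures were made in Python 3.11.15 with pandas 2.3.3. The postnatal arrays were not used here.

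The array names 1605 probes. Of these, 639 were matched to RefSeq symbols by accession and 133 by gene number, and 833 kept the name in the file. A further 276 probes are named only in the study's own tables, which were drawn up from differences on these arrays. Those names were used for single genes and kept out of the list counts, in which a gene is read by its brightest probe. No genome was used, so no coordinates are given.

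The rule for named genes took up to 15 genes per direction with the largest change among called probes without overlap between the stages that were well above background on all 3 arrays of the brighter stage. It added list members, preferring those that passed the adjusted threshold and the brightest, and up to 2 unnamed probes per direction. Other called genes, GAPDH, HACD1, ZFP36, RGS2 and the additional myosin probes were named after their values were seen. The samples, lists and tests were chosen with earlier results of these data known.

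The alternatives altered how arrays were scaled and background was corrected, whether scanner values or the deposited table were used, and the treatment of dim or outlier spots. They also altered the test and its threshold, the arrays and weights in the fit, and terms for sex, slide or replicate number, and left out each array in turn. The fixed slide block and the count without probes ending in A bases were added after the data were seen. The steps were tested on simulated data for U100 against U85 with 14173 probes, of which 200 were changed. They found 87 of 100 changed by 4-fold and, at any fold, 59 of 100 changed by 2-fold, and called 9 others. The simulated noise was independent between probes and between arrays and held no slide difference. These figures therefore do not measure errors that go with the slide. The number of arrays limits the precision.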

Additional observations from a re-analysis of the deposited data

Results flagged for a closer look

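One result differed between the breeds by a test of the difference itself. The rise of EEF1A2 from 85 to 100 d was larger in Ujumqin than in Texel by 3.10 on the log2 scale (SE 0.457, adjusted p = 0.00790, limma over the 31 fetal arrays). It rose in Ujumqin by 4.03, and each U100 array lay above each U85 array. In Texel, T100 replicate 1, at 15.19, lay within the range of the T85 arrays. The other T100 arrays, at 16.66, 16.35 and 16.74, lay above every T85 array. Replicate 1 was on slide 2 and the other T100 arrays were on slide 3. With slide as a fixed block the difference was 2.88 (adjusted p = 0.212), and leaving out 1 array at a time gave differences from 2.75 to 3.30. The result rests on 1 probe, named by the study's tables. By the study's own qPCR, the Texel to Ujumqin ratio of EEF1A2 went the other way, being larger at 100 d than at 85 d.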

How the results depend on the processing

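The counts of called probes in U100 against U85, 86 higher and 80 lower, were 27 and 19 with quantiles over the 6 arrays and a fit on them alone, 28 and 22 with that fit alone, 54 and 47 with the fit on the 10 groups, 51 and 40 with normexp, 67 and 52 with a floor of 16, 251 and 318 with array weights, and 61 and 51 with slide as a random block (correlation 0.0521). With slide as a fixed block they were 1 and 0, and PLOD2 (0.108), KRT85 (0.164), CD200 (0.061), LOC654331 (0.580) and CXCL1 (0.322) changed sign. The methods' t-test called 0 and 0 after Benjamini-Hochberg adjustment, and 130 and 109 at an unadjusted p under 0.05 with 2-fold, where limma called 228 and 229. At the adjusted p alone limma gave 216 and 220. Without 1 array, counts ranged from 30 to 130 higher and from 22 to 193 lower. Without probes ending in 6 A bases they were 86 and 72. The replicate numbers do not pair the fetuses, with correlations of deviations from -0.08 to -0.02 between like-numbered arrays, and the replicate block gave 72 higher and 65 lower. For the difference between the breeds, 1 probe higher and 0 lower became 49 and 173 with array weights and 1 and 3 in the fit on the 13 arrays of the 4 groups, and ranged from 0 to 4 and from 0 to 1 without 1 array. EEF1A2 then had an adjusted p of 0.117 on the 13 arrays. The causes were not tested, and neither was the part of the fewer degrees of freedom in the fits on fewer arrays. The other alternatives kept both counts within 1.5 times. Of the 34 leading probes, 33 kept their call with the deposited table, 26 under the 75th percentile scaling, 24 with normexp, 22 with a floor of 16 or with slide as a random block, 17 in the fit on the 10 groups, 13 in the fit on the 6 arrays, and 0 with the methods' t-test or with slide as a fixed block. Dim probes, such as those of IGSF1, TSHR, GBP2 and CYP17A1, lie near the background, which limits their folds. The slide cannot be separated from the stage within Ujumqin, and the number of arrays limits every comparison.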

Other observations

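Some named genes outside the lists passed the adjusted test below 2-fold. NOS2, the inducible nitric oxide synthase, was higher by 0.77, QPCT, which forms pyroglutamyl peptides, by 0.74, BARX2, a homeobox factor expressed in muscle precursors, by 0.62, and ABHD5, a co-activator of triglyceride lipase, by 0.61 (adjusted p = 0.0401, 0.0201, 0.0481 and 0.0111, limma). SMO, the signal transducer of the hedgehog pathway, changed by -0.73, YBX1, an RNA-binding cold-shock protein, by -0.63, UMPS, an enzyme of pyrimidine synthesis, by -0.71 and ACTG1, cytoplasmic γ-actin, by -0.56 (adjusted p = 0.0295, 0.0117, 0.0134 and 0.0312, limma). These genes were picked after their values were seen, and the other probes of NOS2, SMO, YBX1, UMPS and ACTG1 did not pass. Where a called gene had several probes, in 17 genes, all its probes had the same sign in 15 and all were called in 6.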
